A study of Mus musculus with 2 samples.

Results

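The 50 potassium channel genes described here were taken from a list of voltage-gated, inward-rectifier, two-pore and calcium-activated channel genes, without the genes of the KATP channel. They were matched by symbol among 22367 protein-coding genes of the GENCODE M1 annotation of the mouse genome NCBIM37 (mm9), and 50 of 50 were found. Each was compared with the positions bound by tagged Rfx6 in a β cell line. A gene was counted when the summit of a binding peak, the position of its highest signal, lay within 10 kb of the start of the gene or within 50 kb of the gene. The list itself uses no measured value.

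Potassium channels let K+ leave the cell and so set the resting potential and end each action potential. In β cells the closure of KATP channels by glucose metabolism depolarizes the membrane, voltage-gated Ca2+ channels open, and insulin is released. The delayed-rectifier, calcium-activated and background K+ channels then repolarize the membrane. Rfx6 is a transcription factor of islet cells that binds the X-box, a pair of inverted short repeats with a few bases between them.

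Min6b1 is a mouse β cell line that secretes insulin. It was transfected with 24 µg of a pCMV-Tag2A plasmid carrying Rfx6 with an HA tag (3HA-Rfx6), grown in 25 mM glucose and harvested after 2 days. DNA bound to the tagged protein was precipitated with the anti-HA antibody 12CA5 and sequenced (ChIP-seq). The control library came from Min6b1 cells by the same antibody, and its labels do not give the cells as transfected except in a growth text that both libraries share. Each condition had 1 library, so the values have no replicate error and no test between conditions was possible. The tagged protein came from a plasmid and was added to the Rfx6 of the line. Of the 3HA-Rfx6 library 33949757 reads remained after duplicates were removed, and of the control library 3567375. The list of the authors holds 23308 peaks on 20 chromosomes, each with its reads, its fold enrichment over the background and a false discovery rate (FDR). A peak of this list held 24 to 3489 reads, with a median of 73. No RNA was measured in this experiment, so the expression of the channels in these cells was not examined.

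Of the 50 channel genes, 31 (62%, 95% Wilson interval 48.15 to 74.14%) had a summit within 10 kb of the start, whereas 35.7% of all protein-coding genes had one. A summit within 50 kb of the gene was found for 43 genes (86%, 73.81 to 93.05%), against 67.8% of all genes. The gene itself held a summit in 29 cases, against 31.3% of all genes, and 18 genes had a summit within 1 kb of the start, against 20.1% of all genes. Wilson intervals cover counting error over genes only, and genes of 1 library are not replicates of a condition. Kcnn4 and Kcnj10 were the last genes inside the limit of 10 kb, with their nearest summit 7.26 and 9.58 kb from the start. The next genes outside it were Kcnj14 and Kcnma1, at 10.0 and 14.5 kb. At the limit of 50 kb from the gene, Kcnc2 and Kcnf1 were the last inside, at 45.7 and 48.4 kb. The next outside were Kcnk5 and Kcnk2, at 68.4 and 72.0 kb.

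Long genes have more room for summits, so the shares were set beside those of genes of similar length. For summits within 10 kb of the start, the interval lay above the share of all genes only in the class of 10 to 50 kb. Of the 20 channel genes of 10 to 50 kb, 16 had a summit within 10 kb of the start (80%, 58.4 to 91.93%), against 39.1% of the 8665 protein-coding genes of that length. Of the 9 channel genes under 10 kb, 5 had one (26.67 to 81.12%), against 29.6% of all genes of that length. Of the 9 channel genes of 50 to 200 kb, 4 had one, and of the 12 over 200 kb, 6 had one, against 40.6% and 40.9%. The intervals of these 3 classes include the share of all genes. For summits inside the gene, 14 of the 20 channel genes of 10 to 50 kb had one (48.1 to 85.45%), against 34.7%. The counts were 3 of 9 under 10 kb, against 13.6%, 3 of 9 of 50 to 200 kb, against 54.5%, and 9 of 12 over 200 kb, against 71.8%. A summit within 50 kb was found for 8 of 9 under 10 kb, against 56.7%, and for 19 of 20 of 10 to 50 kb (76.39 to 99.11%), against 73.7%. It was found for 6 of 9 of 50 to 200 kb, against 77.5%, and for 10 of 12 over 200 kb, against 79.4%. Within 1 kb of the start, where all 4 intervals include the share of all genes, the counts from the shortest to the longest class were 3 of 9 against 13%, 6 of 20 against 22.9%, 3 of 9 against 27.6% and 6 of 12 against 30.4%.

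**Figure D1:**
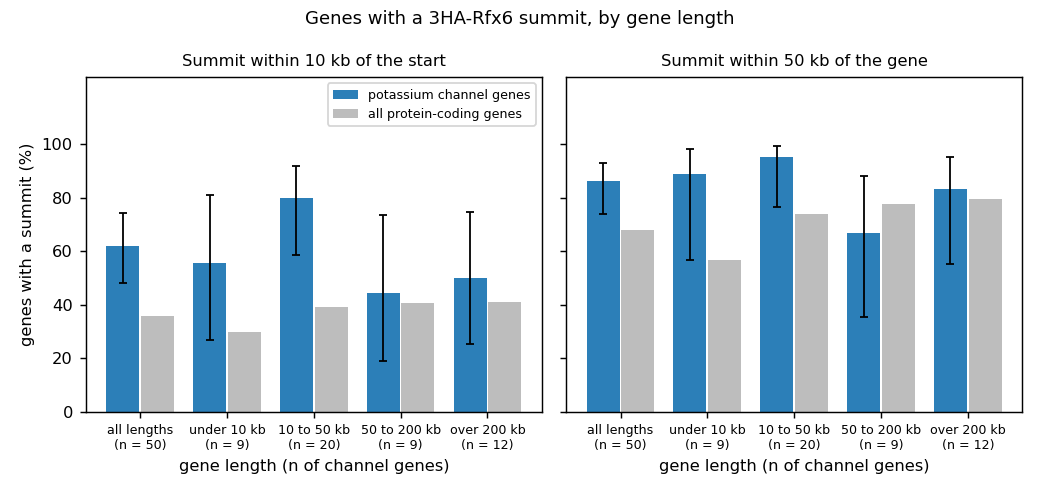
Share of genes (%, vertical axis) with a 3HA-Rfx6 summit within 10 kb of the start (left) or within 50 kb of the gene (right), for all genes and for 4 classes of gene length. Blue bars are the channel genes with 95% Wilson intervals and grey bars are all protein-coding genes, and in the class of 10 to 50 kb the blue bar stands at 80% against 39.1% on the left.

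The peaks were spread over 187 positions within 50 kb of a channel gene, of which 101 lay inside a channel gene or within 10 kb of its start. These 101 peaks held 32 to 620 reads with a median of 84.0, beside 73 for all peaks. Their fold enrichments had a median of 8.0, beside 8.54 for all peaks, and their FDR ran from 1.75 to 22.22%. Among them 18 belonged to the 10% of all peaks with the most reads (17.8%, beside 10.1% of all peaks). Of the 101 summits, 22 (21.8%) lay within 1 kb of the start of a coding transcript, beside 21% of all peaks. Introns held 59 (58.4%, beside 37.9% of all peaks) and 15 lay between genes (14.9%, beside 35.7%), shares that follow from taking peaks inside genes or near their starts. A further 3 lay in coding exons and 2 in other exons. Of the 36 channel genes with such a peak, 15 had 1 and 2 genes, Kcnq1 and Kcnn3, had 10.

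The X-boxes at these peaks were read from the genome, since they are the sequences that Rfx proteins recognise. A scored X-box was defined as GTTNCC, 0 to 3 bases and GGNAAC on either strand with at least 9 of the 10 fixed bases matched. A strict X-box was GTNACC or GTNGCC, 0 to 3 bases, and GGCAAC or GGTAAC or AGCAAC or AGTAAC on either strand, so a single site can meet both definitions. Examples at channel genes, with the X-box in capitals and 20 bases on each side, are these sequences of NCBIM37. They include sites of peaks with many reads, sites with all 10 fixed bases and the strict sites at 2 of the 101 peaks. The list is not complete, and other sites of these kinds were left out.

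Kcnc4, intron 3, chr3:107246838-107246890, plus strand: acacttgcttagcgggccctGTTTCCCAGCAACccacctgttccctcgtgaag

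Kcna3, after the gene, chr3:106841779-106841832, plus strand: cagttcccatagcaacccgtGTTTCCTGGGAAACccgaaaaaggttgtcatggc

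Kcnj9, start, chr1:174259450-174259503, plus strand: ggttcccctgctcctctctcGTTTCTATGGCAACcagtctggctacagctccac

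Kcnj6, start, chr16:95219157-95219209, plus strand: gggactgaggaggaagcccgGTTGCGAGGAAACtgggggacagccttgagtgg

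Kcnn1, upstream, chr8:73389461-73389514, minus strand: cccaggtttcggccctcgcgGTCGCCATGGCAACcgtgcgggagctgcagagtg

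Kcnma1, intron 1, chr14:24602606-24602659, plus strand: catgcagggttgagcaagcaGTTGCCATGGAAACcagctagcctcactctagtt

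Kcnma1, intron 1, chr14:24487008-24487061, minus strand: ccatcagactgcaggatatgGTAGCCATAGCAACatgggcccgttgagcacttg

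Kcnj5, 21.9 kb after the gene, chr9:32100566-32100619, plus strand: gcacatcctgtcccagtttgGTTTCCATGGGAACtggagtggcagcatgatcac

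Of the 101 peaks, 19 held a scored X-box within the 200 bp centred on the summit (18.8%, 12.39 to 27.52%), beside 17.2% of all peaks. Windows as wide but shifted 1 kb to the right held it at 3 of the 101 (2.97%, 1.02 to 8.37%), beside 1.97% of all peaks. The median distance of the scored X-box from the summit was 12 bp at these 19 peaks and 18 bp over the 4002 peaks of the whole list that hold one. The strict X-box was found at 2 of the 101 peaks (1.98%, 0.54 to 6.93%), beside 6.42% of all peaks, and in the shifted windows at 0 of the 101 (up to 3.66%), beside 0.253%. The intervals of the 101 peaks include the share of all peaks for both definitions. The 2 strict sites are those of Kcnn1 and of Kcnma1 on the minus strand shown above. Within 50 kb, 8 of the 187 peaks had it (4.28%, 2.18 to 8.21%). All 10 fixed bases were matched at 3 of the 101 peaks (2.97%), beside 3.3% of all peaks, and in the shifted windows at 0 of the 101, beside 0.129%. The 3 peaks were those at Kcna3, in intron 1 of Kcnma1 and 6.42 kb upstream of Kcnj4. The last of these is nearer to the start of Kdelr3, at 4.74 kb. The peak that holds the Kcnn1 sequence had 118 reads, and its nearest gene start is that of A230052G05Rik at 2.46 kb.

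**Figure D2:**
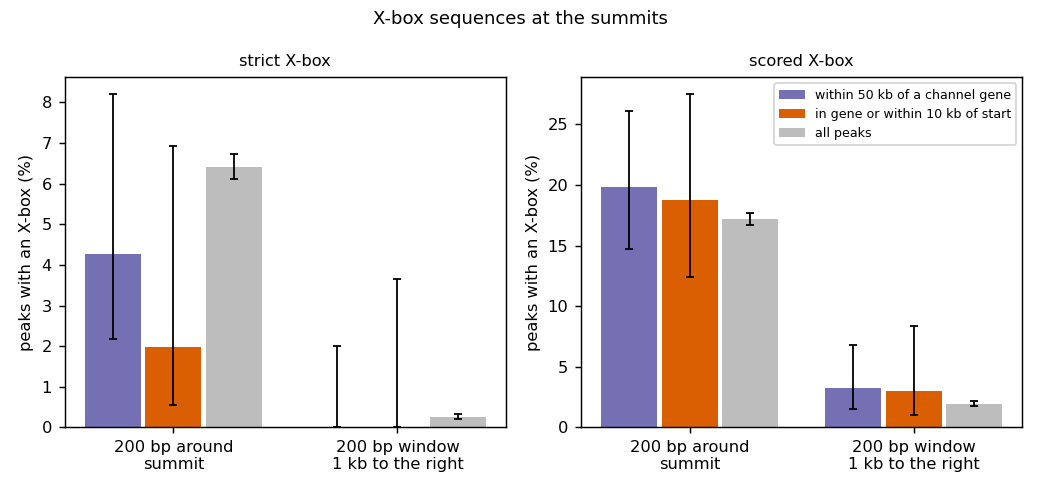
Share of peaks (%, vertical axis) with a strict (left) or scored (right) X-box in the 200 bp around the summit and in a window 1 kb to the right, with 95% Wilson intervals. The scored X-box was present at 18.8% of the peaks in or near channel genes and 17.2% of all peaks, against 2.97% and 1.97% in the shifted windows.

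Kcnq1 (ENSMUSG00000009545.7), the pore subunit of the slowly activating Kv7 channel and a known susceptibility locus of type 2 diabetes, had the peak with the most reads among the 101. Its record spans positions 150293159 to 150612955 of chromosome 7, plus strand. The peak extended from 150598537 to 150603414, in intron 15 of the gene and 10.3 kb before its end. It held 620 reads (95% exact Poisson interval 572 to 671) with a fold enrichment of 45.67 and an FDR of 22.22%. This was the highest FDR of the 101 peaks, although the peak had the most reads. The lowest FDR, 1.75%, belonged to a peak of 62 reads in Kcnj6. Only 0.163% of all peaks held at least as many reads as this Kcnq1 peak. The gene start nearest to its summit is that of Cdkn1c, at 44.3 kb, whereas the start of Kcnq1 is 310 kb away. The other 9 summits inside Kcnq1 held 48 to 120 reads, and 1 of them lay 0.928 kb after the start with 120 reads. The 100 bases around the highest summit, shown because it is the strongest peak of the set and lacks an X-box, match at most 7 of the 10 fixed bases, and the capitals mark that best match.

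Kcnq1, intron 15, chr7:150602614-150602713, plus strand: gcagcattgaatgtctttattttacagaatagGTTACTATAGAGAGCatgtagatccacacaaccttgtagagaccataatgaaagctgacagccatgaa

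Of the other Kv7 genes, Kcnq3 had 1 peak of 51 reads in intron 1, and Kcnq5 had none, with its nearest summit 1710 kb from the gene. Both encode subunits of the slow M current of neurons, and 10 of the 11 peaks in or near the Kv7 genes belonged to Kcnq1.

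The calcium-activated channels open when intracellular Ca2+ rises and slow the firing that follows. All 5 of these genes had a summit within 50 kb and 4 held one inside, beside 67.8% and 31.3% of all protein-coding genes. Kcnn2 and Kcnma1 are over 200 kb long, and 71.8% of all genes of that length hold a summit inside. Kcnn3, which encodes the small-conductance SK3 channel, had the highest fold enrichment among the 101 peaks, 48.02, in a peak of 298 reads (265 to 334) whose summit was 8.51 kb upstream of the start. A further 9 summits lay inside Kcnn3, with 46 to 128 reads. The best match at the upstream summit has 8 of the 10 fixed bases, again marked by capitals.

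Kcnn3, upstream, chr3:89315524-89315623, plus strand: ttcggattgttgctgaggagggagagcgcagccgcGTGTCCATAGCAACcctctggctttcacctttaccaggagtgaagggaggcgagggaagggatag

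Kcnn2, which encodes SK2, held 376 reads (339 to 416) at a fold enrichment of 33.43 in intron 4, 0.637 kb from the start of the shorter transcript Kcnn2-203. It had 0 summits within 10 kb of the start of the gene. Kcnn1, which encodes SK1, had 227 reads in a peak 1.42 kb after its start, enriched 10.1-fold. A peak of 695 reads, enriched 71.32-fold and the highest within 50 kb of any channel gene, lay 49.2 kb beyond the end of Kcnn1, but its nearest gene is Mast3. Kcnma1, the pore of the large-conductance BK channel, had 4 summits in introns 1 and 2 with 32 to 73 reads, fewer than or equal to the median of all peaks. A peak of 387 reads, enriched 40.96-fold, lay 14.5 kb upstream of Kcnma1, which is its nearest gene. The intermediate-conductance channel gene Kcnn4 had a peak of 48 reads 7.26 kb upstream, where a run of 45 bases occurs 2 times.

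The EAG, ERG and ELK channels, voltage-gated channels with a cyclic-nucleotide-binding homology domain, had a summit within 10 kb of the start in 5 of 7 genes. Of all protein-coding genes, 35.7% had one. Kcnh1 had 8 summits inside the gene. They held 46 to 235 reads, and the highest lay in intron 7 with a fold enrichment of 29.89, in a stretch where a run of 52 bases occurs 2 times. Another lay 0.329 kb after the start and held 189 reads, enriched 12.24-fold. Kcnh6, an ERG channel gene, had 5 peaks. Its highest peak of 231 reads (202 to 263) lay 2.82 kb upstream, and one of 188 reads, enriched 21.19-fold, lay in intron 2, 0.877 kb from the start of the transcript Kcnh6-003. With 1.51 summits per 10 kb, Kcnh6 came at rank 52 of the 9718 coding genes that span 20 kb or more. The 4 channel genes with the most summits inside came lower by this density. Kcnn3 came at rank 738, Kcnq1 at 1996, Kcnh1 at 2463 and Kcnj6 at 2542. At least as high a density was found in 7.59%, 20.5%, 25.3% and 26.2% of these coding genes. Other channel genes of this length, such as Kcnd2 and Kcnh7, held 0 summits inside. Kcnh2, the ERG gene of cardiac repolarization, had 4 summits within 10 kb with 82 to 115 reads. The summit of 103 reads is nearer to the start of Nos3, at 5.33 kb, than to that of Kcnh2, at 7.87 kb. Kcnh3 and Kcnh5 had a peak of 48 and of 85 reads within 1 kb of the start, whereas Kcnh7 and Kcnh8 had 0 summits within 50 kb, the nearest being 481 and 124 kb away.

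At the voltage-gated Kv3 gene Kcnc4, which encodes the rapidly inactivating Kv3.4 channel, a pair of peaks stood well above the others. One of 344 reads (309 to 382) had its summit 1.0 kb upstream of the start, and one of 342 reads had its summit in intron 3, 13 bp from the X-box shown above, with fold enrichments of 27.31 and 37.66. Their read numbers did not differ beyond counting error. With 12 summits within 50 kb and 1.46 inside per 10 kb, Kcnc4 came at rank 63 by this density. The other Kv3 genes had lower peaks, with 55 reads in intron 1 of Kcnc1 and a single peak of 83 reads 45.7 kb upstream of Kcnc2.

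The Kv1 genes encode Shaker-type channels, most of them delayed rectifiers, whereas Kcna4 encodes an inactivating A-type channel. Of the 6 genes, 5 had a summit within 10 kb of the start, beside 35.7% of all protein-coding genes. Kcna3 had 231 reads in a peak 0.742 kb beyond the end of the gene, where the start of AI504432 is nearer than its own. Kcna2 had 137 reads 0.588 kb after the start, Kcna6 had 134 reads 0.818 kb after the start and Kcna5 had 110 reads 0.362 kb after the start. Kcna1 had 54 reads in a coding exon, and a peak of 280 reads lay 22.3 kb upstream of it. The nearest summit to Kcna4 was 1060 kb away. The A-type channels Kcnd2 and Kcnd3, which activate below threshold, each had a summit within 1 kb of the start, with 89 and 90 reads. The highest peak of Kcnd3 was a different one, in intron 2, with 168 reads and a fold enrichment of 10.48. Kcnb2, the only Kv2 gene of the set, had 42 and 41 reads in intron 1 and a peak of 216 reads 25.8 kb upstream, whose nearest gene is Gm10566. Of the 5 genes of silent subunits, which modify Kv2 channels and form none alone, Kcng4 had 229 reads in a coding exon and Kcng1 had 46 reads. Kcnf1, Kcng2 and Kcng3 had no summit inside or within 10 kb. A peak of 208 reads lay 19.6 kb upstream of Kcng3, and the highest peak within 50 kb of Kcnf1 and of Kcng2 held 126 and 64 reads. Kcng2 is annotated over only 0.705 kb.

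**Figure D3:**
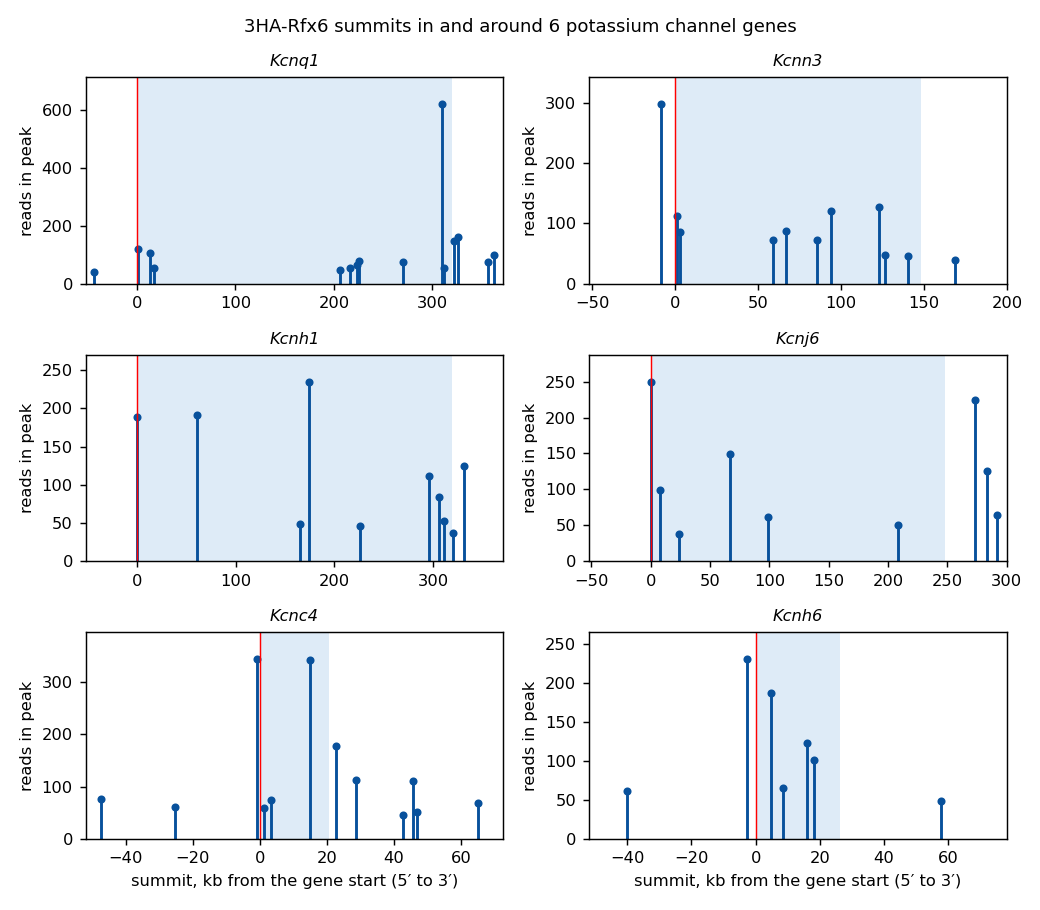
Summits within 50 kb of 6 channel genes, placed by their distance in kb from the gene start in the direction of transcription (horizontal axis), with the reads in each peak (vertical axis). The shaded band is the gene and the red line its start. The 620 reads of Kcnq1 stand near the end of the gene, and the 344 and 342 reads of Kcnc4 stand on both sides of its start.

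The inward rectifiers pass K+ more easily into the cell than out of it and hold the resting potential. Of the 10 genes, 6 had a summit within 10 kb of the start, beside 35.7% of all protein-coding genes. Kcnj9 and Kcnj6 encode the G-protein-gated subunits Kir3.3 and Kir3.2. Kcnj9 had a peak 0.072 kb upstream of the start that held 182 reads, enriched 26.6-fold, which holds the Kcnj9 X-box above, and a peak of 286 reads (254 to 321) 9.6 kb downstream of the start that lies in an exon of the neighbouring gene Igsf8. Kcnj6 had a peak 0.167 kb after its start with 250 reads (220 to 283) and a fold enrichment of 20.71. A further 5 summits in Kcnj6 held 38 to 149 reads. The other subunits of this group had less, since Kcnj3 had none within 50 kb and Kcnj5 had 98 reads at 21.9 kb after the gene and 113 reads at 25.4 kb upstream, where the start of Kcnj1 is nearer, at 2.81 kb. Kcnj4 and Kcnj12, of the strong rectifiers, had 107 and 58 reads within 1 kb of the start, and Kcnj2 had 39 reads in intron 1. Kcnj4 held its highest peak, of 149 reads, in intron 1. At Kcnj14 a peak of 49 reads with a strict X-box lay after the end of the gene, but its nearest gene is Cyth2, whose start is 0.141 kb away. The highest peak within 50 kb of Kcnj14 held 78 reads. Kcnj16 had only the peak of Kcnj2, 42.8 kb away. Kcnj10, the glial Kir4.1, shared 4 peaks with Kcnj9, and the peak within 10 kb of its start is nearer to the start of Kcnj9. In all, 7 peaks lay within 50 kb of more than 1 channel gene, so the counts of neighbouring genes are not independent.

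The two-pore channels carry the background K+ current. Of the 8 genes, 6 had a summit within 10 kb of the start and 4 had one within 1 kb. The shares of all protein-coding genes were 35.7% and 20.1%. Kcnk1 had 230 reads (201 to 262) 0.486 kb after its start, with a fold enrichment of 24.25. Kcnk13 had 223 reads 0.709 kb after its start and 162 reads 4.3 kb upstream, where the fold enrichment was higher, 26.6 against 11.06. Kcnk12 had 111 reads 0.606 kb upstream of its start, and Kcnk3, which encodes the acid-sensitive TASK-1, had 56 reads 0.586 kb after its start and 116 reads in intron 1. Kcnk9 and Kcnk10 had 169 reads 2.66 kb upstream and 124 reads 2.55 kb after the start. Kcnk2 and Kcnk5 had 0 summits within 50 kb, the nearest being 72.0 and 68.4 kb away.

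**Figure D4:**
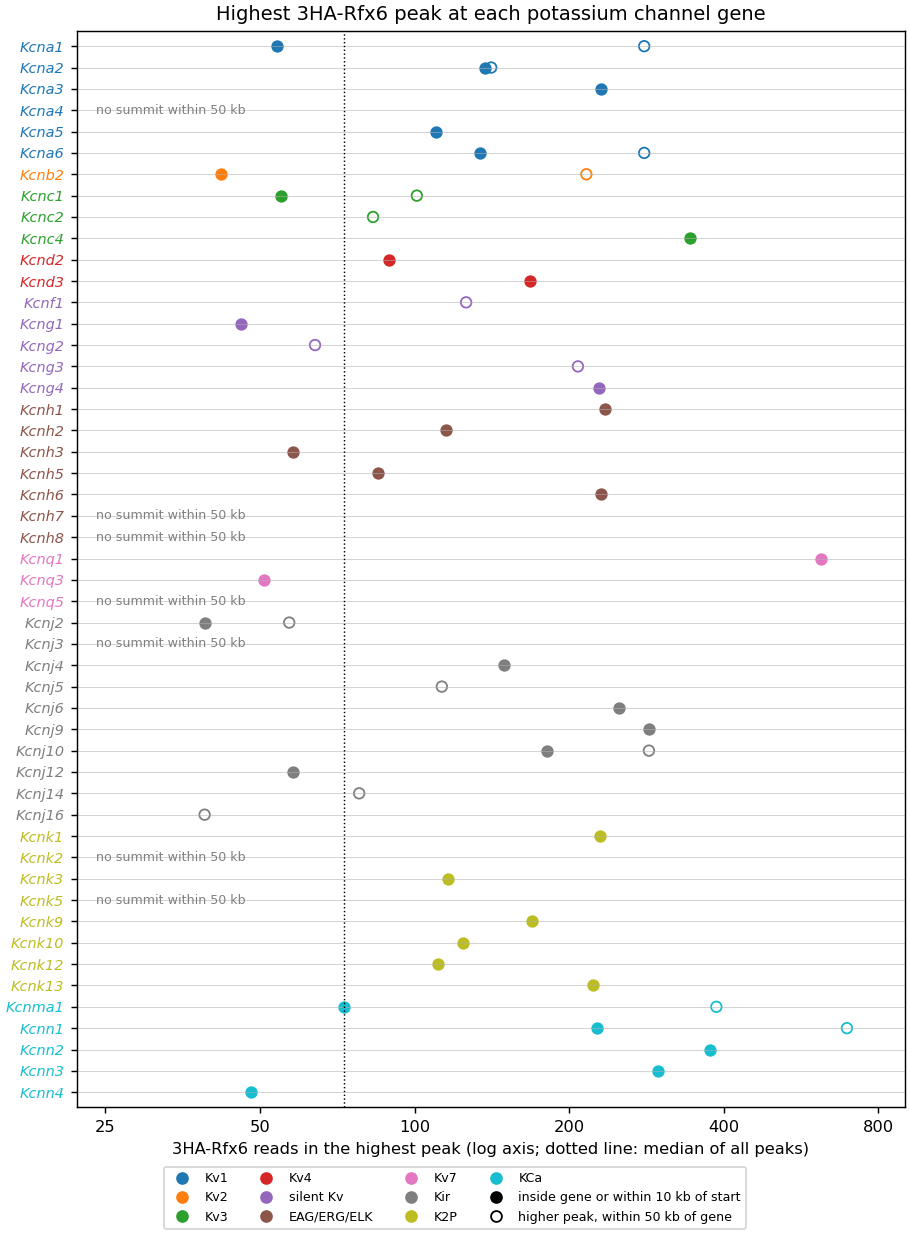
Reads in the highest 3HA-Rfx6 peak at each of the 50 channel genes (horizontal log axis), coloured by family. Filled points are peaks inside the gene or within 10 kb of its start, open points are higher peaks within 50 kb, and the dotted line is the median of all peaks, 73 reads. Kcnq1 stands highest among the filled points with 620 reads, and 7 genes have no summit within 50 kb.

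Over the 43 genes with a summit within 50 kb, the highest peak held a median of 149 reads, beside 116 for all protein-coding genes with one. From the shortest length class to the longest, the medians were 133.5, 149, 117.5 and 225.5 reads, over 8, 19, 6 and 10 channel genes. Those of all genes were 114, 117, 117 and 119. Over the 36 genes with a peak inside or within 10 kb of the start, the highest peak held a median of 135.5 reads, beside 93 for all such genes. By length class the medians were 137, 134, 173.5 and 128.5 reads, over 5, 17, 4 and 10 channel genes. Those of all genes were 88, 90, 96.5 and 111. In the order of the reads of these highest peaks, Kcnq1 stood apart, since its Poisson interval does not reach that of Kcnn2. Reads are totals over a peak and were not corrected for its width. The Kcnq1 peak is the wider, from 150598537 to 150603414 against 45718191 to 45721162 for Kcnn2. By fold enrichment Kcnn3 stood above Kcnq1, at 48.02 against 45.67. The intervals of Kcnn2 and Kcnc4 overlapped, and so did those of every further pair of neighbours down to Kcnn1.

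**Figure D5:**
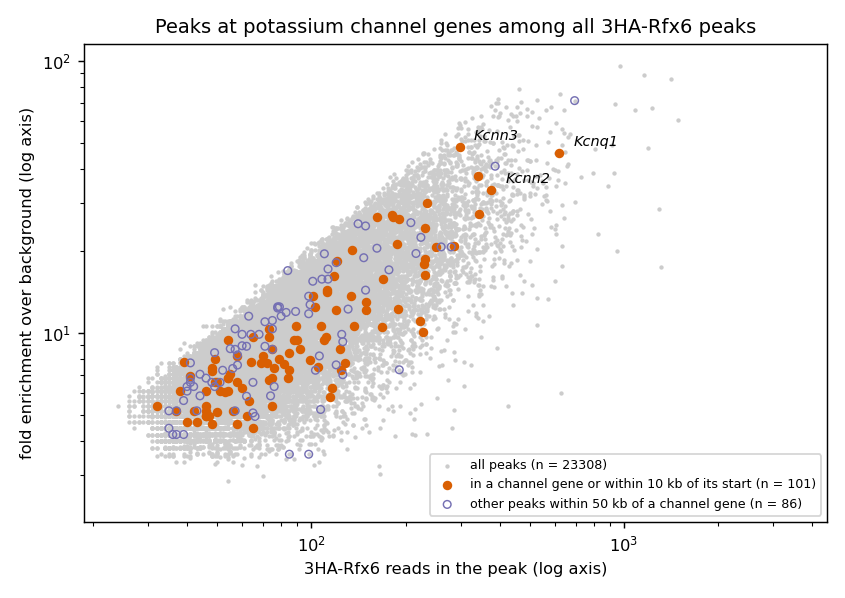
Fold enrichment over background (vertical log axis) against reads (horizontal log axis) of all 23308 peaks (grey), of the 101 peaks in a channel gene or within 10 kb of its start (orange) and of the other 86 peaks within 50 kb (open). The orange points run through the range of the other peaks, up to 620 reads at Kcnq1 and a fold enrichment of 48.02 at Kcnn3.

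The 18 summits within 1 kb of a channel gene start held 48 to 250 reads with a median of 111.5, beside 82.0 for the 4572 such pairs of summit and gene over all genes. Of the 18 summits, 12 lay after the start. Within 10 kb of the start, 22 of the 52 pairs of summit and channel gene had the summit upstream (42.3%), beside 40.8% of such pairs over all genes. A scored X-box was present at 2 of the 18, those of Kcnj9 and Kcnj6, beside 13.8% of all peaks within 1 kb of the start of a coding transcript. When the starts of all coding transcripts were used, Kcnh6, Kcnk10 and Kcnn2 also had a summit within 1 kb. The 7 genes with 0 summits within 50 kb were Kcna4, Kcnh7, Kcnh8, Kcnj3, Kcnk2, Kcnk5 and Kcnq5. The list holds no region with a p-value above 1e-05, so weaker binding at these genes was not detectable at this depth.

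The auxiliary, silent and sodium-activated subunit genes, 24 in all, were listed apart from the channel genes above. Of these, 8 had a summit within 10 kb of the start, beside 35.7% of all protein-coding genes, and 20 had one within 50 kb, beside 67.8%. Among peaks inside these genes or within 10 kb of their starts, those with the most reads were at Kcnip1, a Ca2+-binding partner of the A-type channels, with 320 reads 1.45 kb after its start, at Dpp6, another partner of these channels, with 285 reads in intron 1, and at Kcns1, a silent subunit, with 248 reads 2.87 kb after its start.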

How the data were processed

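The authors sequenced anti-HA ChIP libraries of 3HA-Rfx6 transfected and control Min6b1 cells as single-end reads of 50 bases. The submitters' processing notes name CASAVA 1.8.2, Bowtie, MACS 1.4.2 and mm9. MACS compared both libraries with a p-value cutoff of 1e-05, at most 1 read per position and the smaller dataset scaled towards the larger. The control retained 21.1% of its reads and the 3HA-Rfx6 library 68.7%, so the background rests on 9.52 times fewer reads, and the effect of this on the fold enrichments was not tested. For each peak the authors deposited a count of 3HA-Rfx6 reads, the fold enrichment (a ratio to the background), a score derived from the p-value and the FDR in percent.

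Summits were placed at peak start plus summit offset minus 1 and compared with GENCODE M1 genes of the same build. The start was the end of the gene record at its 5′ side. Kcnb2 and Kcnh8 have 2 records each, of which the longer was used. The intron and exon numbers are those of the longest coding transcript. The genes described in full were the 12 with the most reads in their highest peak, those with a summit within 1 kb of the start, the 4 with the most summits inside, the one with the highest fold enrichment and those without a summit. The others are given by family. The genes and lists were chosen with earlier results of these data known. With 1 library per condition, no test was made, and shares of channel genes were set beside those of all protein-coding genes and of 4 length classes. Intervals are at 95% and cover counting error only. The work was done in Python 3.11.15 (pandas 2.3.3, numpy 2.4.6, pysam 0.24.0, scipy 1.17.1, matplotlib 3.10.9). The gene assignment and the X-box search were tested on simulated data, where 100% of 200 planted genes and 100% of 400 planted X-boxes were found.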

Additional observations from a re-analysis of the deposited data

How the results depend on the processing

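No paired analysis was possible because each condition had a single library, and leaving out a replicate was likewise not possible. With a fold enrichment of at least 10, which kept 9223 peaks, the number of the 50 channel genes with a summit within 10 kb of the start fell from 31 to 19 (17.2% of all genes), within 1 kb from 18 to 11 (8.65%) and inside the gene from 29 to 15 (16.2%), since fewer peaks entered. An FDR of at most 1% left 10 peaks and 0 channel genes with a summit under each of the 4 rules, and gave no median and no X-box share. Among the peaks within 50 kb of a channel gene, the FDR was highest, 25.29%, in the peak with the most reads, 695. It was lowest, 1.75%, in a peak of 62 reads. The 0 is therefore not a sign that these genes have weak peaks only. The median of the highest peak within 50 kb rose from 149 reads to 216 with the 50% of peaks of the highest scores and to 229.5 with a fold enrichment of at least 10, since weak peaks were removed. Over all protein-coding genes this median rose from 116 to 145 and to 152 under the same settings. The share of peaks within 50 kb with a strict X-box, 4.28%, was 19.8% for the scored X-box, whose definition is looser, and 1.98% for the peaks inside or within 10 kb of the start. Over all peaks the strict share was 6.42% and the scored share 17.2%. Counting a peak only for its nearest gene left 29 channel genes within 10 kb (28.5% of all genes) and 37 within 50 kb (41.3%). The 50% of peaks with the highest scores left 15 channel genes within 1 kb (11.7% of all genes) and 24 within 10 kb (21.6%). They left 21 with a summit inside (19.8%) and 35 within 50 kb (51.1%). A fold enrichment of at least 10 left 30 within 50 kb (45.6%). The whole extent of a peak, transcript starts, and distances of 2, 5, 20 and 100 kb likewise left each count within 1.5 times the value given. In the 100 bp around the summit the strict X-box share was 4.28%, beside 5.05% of all peaks. With the 50% highest scores it was 4.85%, beside 7.03% of all such peaks. With a fold enrichment of at least 10 it was 6.94%, beside 8.65% of all such peaks.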

Other observations

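The summit of the highest peak of Kcnh1, in intron 7 with 235 reads, lies in a stretch of repeated sequence. A run of 52 bases occurs 2 times in the 200 bp around it, shifted by 48 bases. At the peak of Kcnn4, 7.26 kb upstream with 48 reads, a run of 45 bases occurs 2 times. The next longest run among the 35 highest peaks examined was 11 bases, and the median was 8.0 bases. Both genes were picked out after these values were seen, and the effect of repeated sequence on the reads of these peaks was not tested.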
